A study of Mus musculus with 70 samples.

Results

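The 39 genes described here build sterols and fatty acids or control that synthesis, and they were followed in Tregs from 6 mouse tissues. They were chosen by name, as a list of mouse symbols matched to the Ensembl gene IDs of the count table, with earlier results of these data known. All 39 were found among the 53465 gene IDs of the table, and all 39 passed the filter for testing, which was at least 1 CPM (the reads of a gene per 1000000 of its library) in at least 10% of the libraries and left 13173 protein-coding genes. By role, the list held 7 genes of the mevalonate steps, 11 of the steps from squalene to cholesterol, 5 of SREBP control, 5 of LXR signalling and sterol transport, 3 of fatty acid synthesis, and 8 of fatty acid elongation and desaturation.

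The study compared Tregs that carry ST2, the IL-33 receptor, with Tregs that lack it. From each of 5 male mice that carry the Foxp3tm4(YFP/icre)Ayr allele on a B6.129(Cg) background, aged 16.6 to 18.6 weeks and given no treatment in the labels, ST2+ CD44hi and ST2- CD44hi Tregs were sorted from blood, spleen, lungs, visceral adipose tissue (VAT), colon and skin, and ST2- CD44lo CD62L+ Tregs from spleen and lungs. In these animals YFP and Cre are made from the Foxp3 locus, so YFP marks the cells that transcribe Foxp3, and the sort took CD45.2+ CD4+ YFP+ cells. CD44hi cells are called effector Tregs (eTregs) and CD44lo CD62L+ cells central Tregs (cTregs) below. The 14 groups had 5 libraries each except blood ST2+ (mice 2 to 5) and colon ST2+ (mice 1, 3 and 4), because 3 libraries held fewer than 1000000 counts and were left out. The 67 libraries kept held 1304560 to 2759926 counts, with a median of 2039002, so 1 CPM stood for about 2 reads and genes near that level were measured with little precision. Most libraries, 60 of 67, came from 220 sorted cells, and the smallest came from 55.

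Sterols and fatty acids are both made from acetyl-CoA. In the mevalonate pathway acetyl-CoA becomes isoprene units, which are joined into squalene, closed into the sterol ring and trimmed to cholesterol, while fatty acids are built by acetyl-CoA carboxylase and fatty acid synthase and are then lengthened and given double bonds by elongases and desaturases. SREBP transcription factors switch on these enzymes when sterols are low, with Scap carrying them out of the endoplasmic reticulum and Insig proteins holding them there, and LXR receptors switch on sterol export when oxysterols are high. In T cells the pathway is known for supplying membrane during proliferation, and in Tregs mevalonate metabolism is known to be needed for suppressive function.

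All 6 genes of a T cell and Treg list had counts in every group, with group means of their summed level between 2128 and 3384 CPM. The level in bulk RNA cannot tell fewer cells making a transcript from less of it in each cell. Expressed per kilobase of annotated exon, so that genes could be compared with each other, the highest mean level over all 67 libraries was that of Hacd3 (141 CPM per kb), which encodes a dehydratase of very long chain fatty acid elongation, followed by the elongase gene Elovl5 (113 CPM per kb). The sterol isomerase gene Ebp stood at 66.1, the elongase gene Elovl1 at 64.4 and the ATP citrate lyase gene Acly at 48.1 CPM per kb. At the lower end were the carboxylase gene Acaca (0.631), the LXRα gene Nr1h3 (0.609), and the desaturase genes Scd1 (0.597) and Fads2 (0.303). Nr1h3 had counts in 21, Scd1 in 19 and Fads2 in 13 of the 67 libraries.

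The promoter windows of 4 genes are printed because the results below turn on these genes and because they differ in the SREBP-type letters they hold. RefSeq windows on GRCm38.p6, from 250 bases before to 50 bases after the transcription start, were available for 31 of the 39 genes and for 27025 genes in all, and were searched on both strands. Capitals mark the matches, which were TCACNCCAC (a sterol response element-like motif), its shorter core CACNCCAC (which overlaps it), the CCAAT box, the GC box GGGCGG and the E-box CACGTG. The stretch printed from the window of Hmgcs1, the synthase of the mevalonate pathway, is chr13:119690101-119690350 on the plus strand, upstream of the gene at chr13:119690379-119708260. That of Insig1, cut short 50 bases before the start, is chr5:28071162-28071362 on the plus strand and lies before the gene at chr5:28071363-28078662. That of Hacd3 is chr9:65021718-65021967 on the minus strand (gene at chr9:64986983-65021693), and that of Elovl5 is chr9:77917115-77917363 on the plus strand (gene at chr9:77917364-77984519). Each line reads 5′ to 3′ and stops before the transcript.
Hmgcs1: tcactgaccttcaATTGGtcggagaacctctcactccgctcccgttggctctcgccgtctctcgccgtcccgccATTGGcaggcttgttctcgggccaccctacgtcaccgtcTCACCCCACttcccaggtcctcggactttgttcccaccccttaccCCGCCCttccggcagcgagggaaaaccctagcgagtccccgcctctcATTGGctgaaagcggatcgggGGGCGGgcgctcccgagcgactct
Insig1: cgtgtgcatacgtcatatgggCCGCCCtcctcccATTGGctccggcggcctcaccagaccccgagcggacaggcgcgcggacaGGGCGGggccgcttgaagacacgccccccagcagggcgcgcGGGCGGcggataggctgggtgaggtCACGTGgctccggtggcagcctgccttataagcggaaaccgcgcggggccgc
Hacd3: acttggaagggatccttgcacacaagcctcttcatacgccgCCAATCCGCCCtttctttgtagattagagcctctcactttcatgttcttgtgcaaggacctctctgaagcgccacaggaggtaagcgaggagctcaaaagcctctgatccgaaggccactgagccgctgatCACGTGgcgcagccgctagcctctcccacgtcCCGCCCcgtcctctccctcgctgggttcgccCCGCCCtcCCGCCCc
Elovl5: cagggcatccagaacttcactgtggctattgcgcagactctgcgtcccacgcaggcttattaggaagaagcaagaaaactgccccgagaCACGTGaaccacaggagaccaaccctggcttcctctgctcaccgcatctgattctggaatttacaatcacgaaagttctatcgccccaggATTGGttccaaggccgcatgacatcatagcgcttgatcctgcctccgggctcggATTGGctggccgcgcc
The 9-letter motif was found in the Hmgcs1 window, 137 bases before the start, and in no other member window, while 1.44% of all genes held it. A gene was counted when any of its windows held the motif, and Dhcr7, Srebf1 and Insig2 had 3 windows each. The core was found in 3 of the 31 members (Acat2, Hmgcs1 and Insig1), or 9.68%, against 7.12% of all genes, and the Insig1 match lies outside the stretch printed. CCAAT was present in 74.2% of these members and 41.1% of all genes, GGGCGG in 77.4% and 38.2%, and CACGTG in 25.8% and 8.09%. The LXR-type direct repeat with a spacer of 4 bases was found in 0 of the 31 members. These matches describe letters in a short window and not binding.

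Skin differed most from spleen. A gene was called a DEG when its fold change was at least 1.5 and its Benjamini-Hochberg adjusted p, from edgeR's quasi-likelihood test over all 13173 genes, was at most 0.05. Between skin and spleen, 14 of the 39 genes were DEGs in ST2+ Tregs (11 higher and 3 lower in skin), where 29.1% of all genes tested were, and 10 were DEGs in ST2- CD44hi Tregs (9 higher and 1 lower), where 30.9% of all genes were. The share of the list that changed was therefore near that of all genes, but its direction leaned to skin, since 14.4% of all genes were higher and 14.6% lower in skin ST2+ Tregs and 16.7% and 14.1% in skin ST2- Tregs. The median log2 fold change of the 39 genes was 0.39 in ST2+ and 0.31 in ST2- CD44hi Tregs, and that of all genes was -0.01 and 0. The 5 tissues were all compared with the same spleen libraries, and the heat map of tissue against spleen gives the values of all 39 genes side by side.

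**Figure D1:**
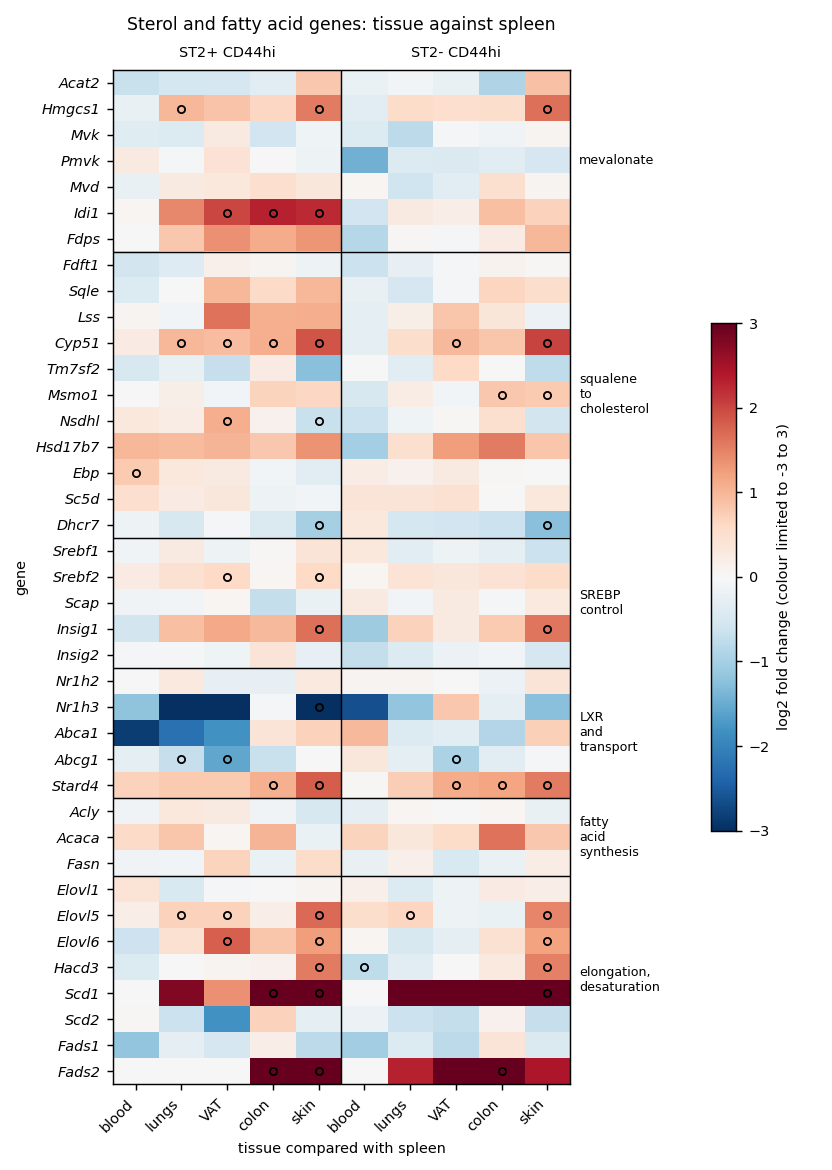
Log2 fold change of each of the 39 genes (rows, by role) in 5 tissues against spleen (columns), in ST2+ CD44hi Tregs on the left and ST2- CD44hi Tregs on the right, with the colour limited to -3 to 3 and circles on DEGs. The skin columns hold 14 and 10 circles, and the saturated cells of Nr1h3, Scd1 and Fads2 come from groups at or near 0 counts, where the fitted value depends on the prior count.

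Hacd3 and Elovl5, both of fatty acid elongation, were higher in skin in both populations. Hacd3 stood at 885, 1141, 1024, 1131 and 1070.05 CPM in the skin ST2+ libraries of mice 1 to 5 and at 389.9, 312, 355, 371 and 351 CPM in those of spleen. In ST2- CD44hi Tregs it was 740.1, 986, 826, 885 and 922 CPM in skin and 267, 335, 317, 295 and 311 CPM in spleen. Every skin library was above every spleen library, and the difference was 2.95-fold in ST2+ Tregs (log2 fold change 1.56 ± 0.12 (SE), adjusted p = 4.43e-16) and 2.86-fold in ST2- CD44hi Tregs (log2 fold change 1.51 ± 0.12 (SE), adjusted p = 1.04e-15) by edgeR. Elovl5, which elongates polyunsaturated fatty acids, was 869, 952, 929.6, 1007 and 843 CPM in skin ST2+ Tregs against 291, 292, 208, 295 and 322 CPM in spleen. Its ST2- CD44hi libraries held 467, 775, 663, 819 and 671 CPM in skin and 250.9, 211, 248, 268 and 256 CPM in spleen. The groups again did not overlap, and Elovl5 rose 3.26-fold (log2 fold change 1.71 ± 0.15 (SE), adjusted p = 3.25e-14) and 2.75-fold (log2 fold change 1.46 ± 0.15 (SE), adjusted p = 5.87e-12) by edgeR. Elovl6, the elongase of palmitate, was also higher in skin, with log2 fold changes of 1.26 ± 0.48 (SE; edgeR adjusted p = 0.0375) and 1.20 ± 0.48 (adjusted p = 0.044), although its skin and spleen libraries overlapped.

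Hacd3 and Elovl5 were also the 2 members that were higher in skin than in each of the 5 other tissues in both populations, a pattern met by 237 genes or 1.80% of those tested. Against skin, the log2 level of Hacd3 in ST2+ Tregs was -1.98 in blood, -1.54 in lungs, -1.49 in VAT and -1.42 in colon. In ST2- CD44hi Tregs these differences were -2.28, -1.83, -1.52 and -1.22. For Elovl5 they were -1.51, -1.02, -1.01 and -1.50 in ST2+ and -0.94, -0.83, -1.62 and -1.65 in ST2- CD44hi Tregs. No skin library of either gene overlapped a library of another tissue in the same population. Summed over the 8 elongation and desaturation genes, the level was 2282 ± 211 CPM (SD, n = 5) in skin ST2+ and 1868 ± 246 CPM (n = 5) in skin ST2- CD44hi Tregs, against 911 ± 57.2 and 829.97 ± 34.3 CPM (n = 5 each) in spleen, and these 2 genes made up most of it.

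**Figure D2:**
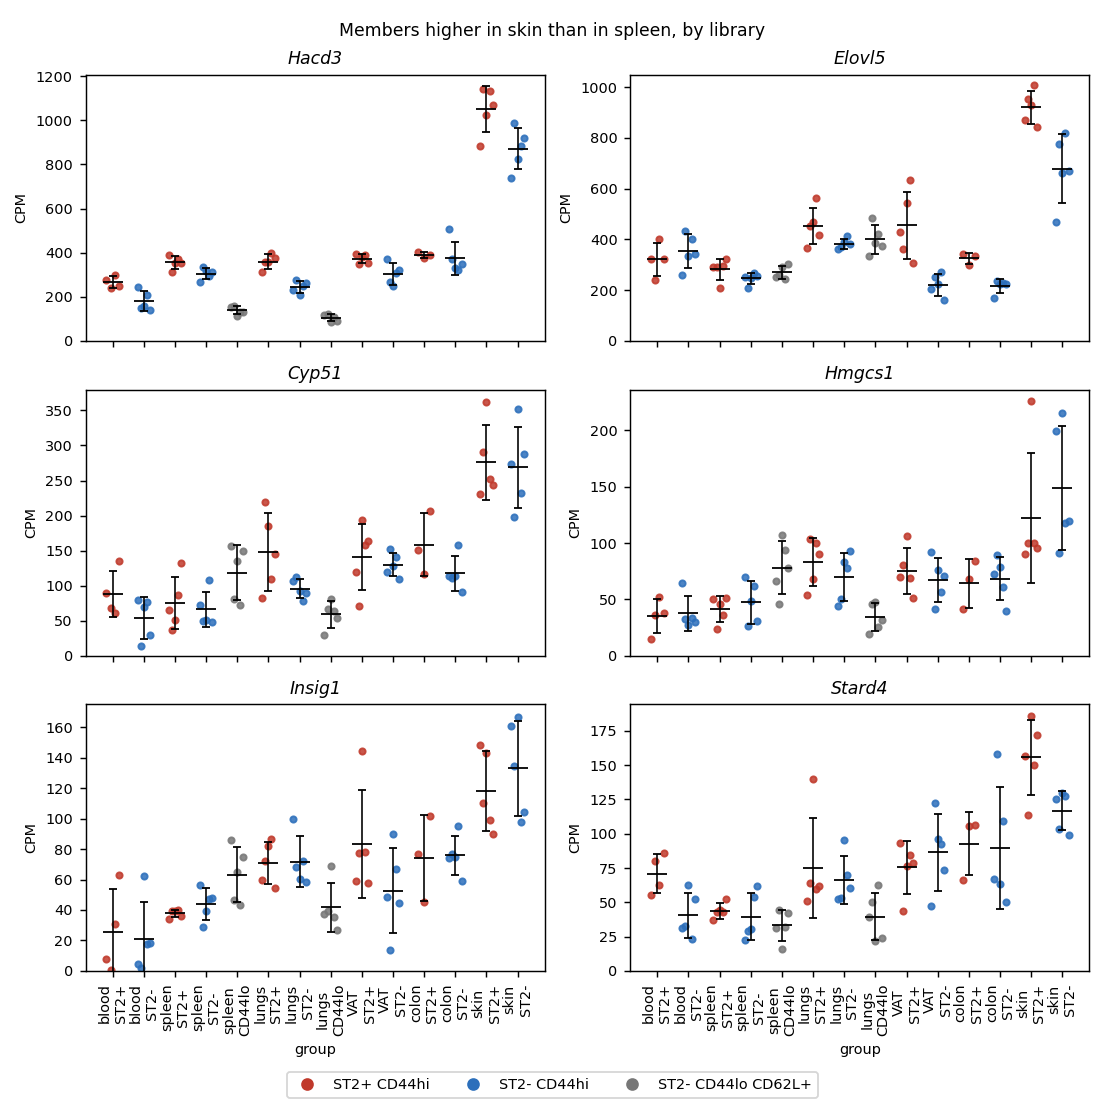
CPM of 6 genes in every library of the 14 groups (points, ST2+ red, ST2- blue, CD44lo grey), with the group mean and SD. The skin libraries of Hacd3 and Elovl5 stand above those of all other tissues in the same population, whereas those of Cyp51, Hmgcs1, Insig1 and Stard4 are high but approach or overlap other tissues.

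Genes at single steps of sterol synthesis were higher in skin as well. Cyp51, the lanosterol demethylase, was 231, 291, 362, 252 and 243 CPM in skin ST2+ and 65.9, 37.5, 51.5, 86.2 and 133 CPM in spleen ST2+ Tregs. In ST2- CD44hi Tregs it was 273, 198, 351, 232 and 288 CPM in skin and 73.3, 49.4, 51.7, 108 and 48.5 CPM in spleen. Skin lay above spleen in every library, 3.68-fold (log2 fold change 1.88 ± 0.31 (SE), adjusted p = 2.34e-06) and 4.06-fold (log2 fold change 2.02 ± 0.31 (SE), adjusted p = 5.62e-07) by edgeR. Hmgcs1, whose window holds the 9-letter motif shown above, was 90.4, 99.98, 225, 100.1 and 95.5 CPM in skin ST2+ against 50.01, 23.9, 46.05, 36.1 and 51.2 CPM in spleen, and 199.6, 90.99, 216, 118 and 119.6 CPM in skin ST2- against 69.9, 26.4, 48.7, 61.7 and 30.9 CPM in spleen. It did not overlap between the tissues either, and it rose 2.94-fold (log2 fold change 1.56 ± 0.32 (SE), adjusted p = 8.92e-05) and 3.13-fold (log2 fold change 1.65 ± 0.32 (SE), adjusted p = 3.28e-05) by edgeR. The library of mouse 3 was the highest skin library in both populations.

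One gene of SREBP control and one of sterol transport were higher in skin in both populations. Insig1, which holds SREBP in the endoplasmic reticulum and is itself an SREBP target, was 148, 111, 143, 99.3 and 89.8 CPM in skin ST2+ and 34.1, 39.4, 39.4, 39.8 and 35.99 CPM in spleen ST2+ Tregs. It was 161, 135, 166, 97.9 and 104 CPM in skin and 56.5, 28.9, 39.1, 47.2 and 48.1 CPM in spleen ST2- CD44hi Tregs, again without overlap. Its fold changes were 3.13 (log2 fold change 1.65 ± 0.48 (SE), adjusted p = 0.00538) and 3.02 (log2 fold change 1.59 ± 0.47 (SE), adjusted p = 0.0066) by edgeR. Stard4, a cytosolic cholesterol carrier, was 156, 114, 186, 150.2 and 172 CPM in skin ST2+ against 36.8, 42.7, 44.5, 42.9 and 52.6 CPM in spleen. The ST2- CD44hi libraries held 125, 104, 129, 127 and 99.1 CPM against 22.4, 29.3, 30.9, 53.9 and 61.8 CPM. It rose 3.55-fold (log2 fold change 1.83 ± 0.31 (SE), adjusted p = 2.82e-06) and 2.94-fold (log2 fold change 1.56 ± 0.31 (SE), adjusted p = 4.63e-05) by edgeR, with no overlap in either population. Of the other steps, the isomerase gene Idi1 was higher in skin ST2+ Tregs from a low level, at 10.2, 7.28, 6.81, 4.17 and 3.39 CPM against 1.89, 0.939, 1.56, 1.03 and 1.06 CPM (log2 fold change 2.25 ± 0.67 (SE), adjusted p = 0.00702, edgeR), and the sterol oxidase gene Msmo1 was higher in skin ST2- CD44hi Tregs (log2 fold change 0.79 ± 0.28 (SE), adjusted p = 0.0236, edgeR). Srebf2, which encodes the SREBP of sterol synthesis, was higher in skin ST2+ Tregs (log2 fold change 0.59 ± 0.21 (SE), adjusted p = 0.0282, edgeR), but with mouse as a replicate block its log2 fold change was 0.58, under the fold limit.

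Other enzymes of the same pathway went the opposite way. Dhcr7, the last reductase before cholesterol, was 33.3, 15.9, 32.2, 24.2 and 15.8 CPM in skin ST2+ and 70.1, 43.2, 56.6, 30.5 and 43.04 CPM in spleen ST2+ Tregs. In ST2- CD44hi Tregs it was 38.5, 9.44, 14.7, 11.2 and 14.7 CPM in skin and 48.2, 43.1, 43.9, 34.8 and 44.98 CPM in spleen. Its libraries overlapped, yet it was lower in skin in both populations (log2 fold change -1.0001 ± 0.35 (SE), adjusted p = 0.0239, and log2 fold change -1.26 ± 0.36 (SE), adjusted p = 0.0044, edgeR). Nsdhl, a sterol dehydrogenase, was lower in skin ST2+ Tregs (log2 fold change -0.67 ± 0.26 (SE), adjusted p = 0.0403, edgeR), and Nr1h3 had 0 counts in all 5 of those libraries and a mean of 3.51 CPM in spleen, at least 10.8-fold lower against a floor of 3 counts over the group (edgeR adjusted p = 0.0433). By role, skin ST2+ Tregs had 2 of 7 mevalonate genes higher (median log2 fold change 0.81), 1 higher and 2 lower of 11 squalene-to-cholesterol genes (median -0.07), 2 of 5 SREBP control genes higher (0.39), 1 higher and 1 lower of 5 LXR and transport genes (0.29), 0 of 3 fatty acid synthesis genes (-0.21) and 5 of 8 elongation and desaturation genes higher (1.41). In skin ST2- CD44hi Tregs these medians were 0.69, 0.04, 0.29, 0.38, 0.23 and 1.33, and the genes that passed numbered 1, 3, 1, 1, 0 and 4. With each mouse left out in turn, Hacd3, Elovl5, Cyp51, Hmgcs1, Insig1 and Stard4 passed in both populations, and in ST2+ Tregs Scd1 and Idi1 did too. In ST2+ Tregs Nr1h3 and Fads2 did not pass without any 1 of the 5 mice, nor Elovl6 without mouse 3, 4 or 5, Srebf2 and Dhcr7 without 3 of the mice each, or Nsdhl without 4 of them (adjusted p up to 0.226 for Nsdhl). In ST2- CD44hi Tregs this held for Elovl6 with any mouse, Msmo1 with mouse 2 or 3 and Scd1 with mouse 3 (up to 0.296 for Msmo1). The ST2+ log2 fold changes in these fits were 0.93 to 1.23 for Elovl6, 0.50 to 0.60 for Srebf2, -0.89 to -1.06 for Dhcr7 and -0.51 to -0.76 for Nsdhl. The ST2- values were 1.004 to 1.38 for Elovl6, and 0.78 (mouse 2) and 0.42 (mouse 3) for Msmo1.

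Transcripts of other skin cells were present in the same libraries. Of 5 keratinocyte markers, 5 had counts in skin, and their sum was 65.7, 203, 1323, 180.2 and 163 CPM in the ST2+ libraries of mice 1 to 5 and 329.9, 27.0, 1272, 20.3 and 90.9 CPM in the ST2- CD44hi libraries. Krt14 was the most abundant, with group means of about 120 CPM in ST2+ and 123 CPM in ST2- Tregs, while Krt5 and Krt14 were at 0 in spleen. The skin libraries of mouse 3, which held the most keratinocyte RNA, were also those with the highest Hmgcs1. Dendritic cell markers summed to a mean of 88.6 CPM (38.4 to 162) in skin ST2+ and 49.9 CPM (35.2 to 61.1) in skin ST2- libraries, mostly Xcr1, against 7.73 and 4.13 CPM in spleen. Fibroblast markers summed to 2.13 to 81.4 CPM in skin ST2+ and 38.7 to 705 CPM in skin ST2- libraries. Of 7 sebaceous gland markers, 5 had counts in skin ST2+ and 6 in skin ST2- CD44hi Tregs. Krt79 (means of 44.1 CPM in skin ST2+ and 4.23 CPM in skin ST2- Tregs) and Scd3 (0.645 and 3.51 CPM) were at 0 in spleen ST2+ and ST2- CD44hi Tregs, and Scd3 passed as higher in skin ST2- CD44hi Tregs (edgeR adjusted p = 0.0145). Mgst1 had means of 11.6 and 17.2 CPM in skin and of 0.282 and 0 CPM in spleen, whereas Mc5r was at 0 in both skin groups and Elovl3 at 0 in skin ST2+ Tregs. The sum of the 7 ran from 84.4 to 391 CPM in ST2+ and from 160.1 to 349 CPM in ST2- libraries, against means of 146 and 136 CPM in spleen, with Soat1 and Plin2 of that list also expressed by T cells. Without 15 libraries of all tissues that held over 500 CPM of markers of 8 other cell types (colon epithelium and sebaceous gland not among them), a choice made after seeing the data, 9 members instead of 14 passed in skin ST2+ Tregs, where 27.1% of all genes did. Elovl6 (log2 fold change 1.22), Nsdhl (-0.71), Nr1h3 and Srebf2 (0.54) no longer passed at fold changes close to those with all libraries, nor did Fads2, whose only skin ST2+ library with counts was among those left out. Without them Hacd3 (log2 fold change 1.57), Elovl5 (1.70), Cyp51 (1.76), Stard4 (1.75), Insig1 (1.57) and Hmgcs1 (1.21) still differed between skin and spleen ST2+ Tregs by edgeR, and in ST2- CD44hi Tregs, where 2 of 5 skin libraries remained, Msmo1, Scd1 and Elovl6 no longer did. Skin was digested with collagenase and spleen was not enzyme-digested, so tissue and dissociation cannot be told apart.

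The desaturase genes Scd1 and Fads2 were low or at 0 outside skin and colon. Scd1, which makes monounsaturated fatty acids, had 0 counts in every blood and spleen library. It was 0, 36.4, 12.4, 11.7 and 25.4 CPM in skin ST2+, 2.14, 0, 36.99, 2.097 and 2.35 CPM in skin ST2- CD44hi and 32.6, 4.42 and 2.87 CPM in colon ST2+ Tregs. Against the floor of 3 counts over the spleen group, Scd1 was at least 65.7-fold higher in skin ST2+ (edgeR adjusted p = 0.00313), 34.7-fold in skin ST2- (adjusted p = 0.00606) and 50.9-fold in colon ST2+ Tregs (adjusted p = 0.0158). Not all libraries shared this, since 1 of 5 was at 0 in each skin group. Fads2, a desaturase of polyunsaturated fatty acids, was 2.397, 30.96 and 9.17 CPM in colon ST2+ and 0, 8.299, 0, 2.54 and 1.21 CPM in colon ST2- CD44hi Tregs, at least 54.2-fold (edgeR adjusted p = 0.00931) and 9.59-fold (adjusted p = 0.0351) above spleen. These bounds rested on mouse 3 in colon ST2+, without which Fads2 did not pass (edgeR adjusted p = 0.0743), and on mouse 2 in colon ST2- CD44hi Tregs (0.187 without it), where the call was lost without any 1 of the 5 mice. In skin ST2+ Tregs a single library held Fads2, at 4.95 CPM, and its call there was lost with mouse as a replicate block (edgeR adjusted p = 0.111). The call of Scd1 in skin ST2+ Tregs held in every alternative run, also without the 15 marker-rich libraries with over 500 CPM of other-cell markers (edgeR adjusted p = 0.00563). The skin ST2+ libraries that this kept held 305 to 419 CPM of those markers, above the 84.5 to 183 CPM of spleen ST2+ libraries, and sebaceous gland markers were not counted in it, so the part of other skin cells in the skin Scd1 values was not tested. The Scd1 bound in skin ST2- Tregs rested on mouse 3 and that in colon on mouse 1. Without those mice Scd1 did not pass (edgeR adjusted p = 0.0903 in skin ST2- and 0.108 in colon ST2+), nor did it in colon without mouse 3 or 5 (0.0775 and 0.0525), in skin ST2- without the marker-rich libraries (0.131) or in colon with DESeq2 (adjusted p = 0.114). RNA of other cells was present in colon. In colon ST2+ Tregs 8 of 8 macrophage markers had counts and summed to 1445, 1211 and 1462 CPM (Lyz2 the most abundant, at 522 CPM), against 31.8, 223, 73.9, 59.7 and 68.3 CPM in colon ST2- CD44hi Tregs, and fibroblast markers summed to 768, 970.2 and 305 CPM in ST2+ Tregs. Of 6 colon epithelium markers 6 had counts, summing to 303, 2341 and 750.1 CPM in colon ST2+ and to 86.3, 1739, 455, 116 and 231 CPM in colon ST2- CD44hi Tregs (Lgals4 the most abundant, at 288 and 149 CPM), against means of 175 CPM in spleen ST2+ and 75.2 CPM in spleen ST2- CD44hi Tregs, mostly of Epcam. The part of those transcripts in the colon ST2+ values of Scd1 and Fads2 was not tested, since all 3 libraries were marker-rich.

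**Figure D3:**
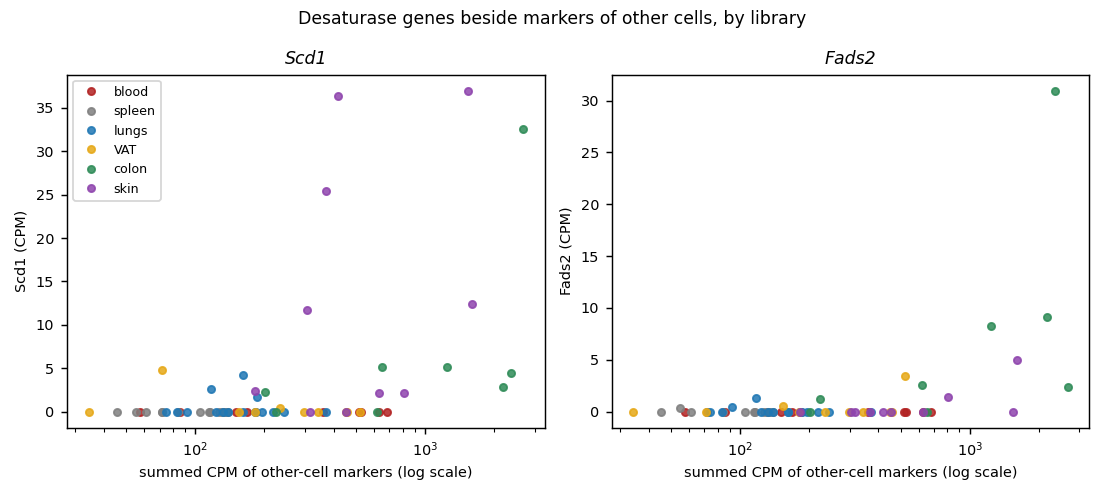
CPM of Scd1 (left) and Fads2 (right) against the summed CPM of markers of 8 other cell types, without colon epithelium and sebaceous gland (log scale), 1 point per library and coloured by tissue. Points above 0 lie mainly in skin and colon, Fads2 above 5 CPM is seen only in colon libraries, and Scd1 above 10 CPM is seen in 5 skin libraries and 1 colon library.

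In the other tissues fewer members differed from spleen. In VAT ST2+ Tregs 7 passed, where 11.2% of all genes did, and in VAT ST2- CD44hi Tregs 3 passed, where 5.78% did. Abcg1, a sterol exporter and LXR target, was 39.7, 14.9, 23.9, 29.4 and 24.3 CPM in VAT ST2+ and 72.7, 92.9, 77.7, 89.8 and 56.5 CPM in spleen ST2+ Tregs. All VAT libraries were below all spleen libraries (log2 fold change -1.55 ± 0.23 (SE), adjusted p = 5.9e-07, edgeR), and Abcg1 was also lower in VAT ST2- CD44hi (log2 fold change -0.96 ± 0.22 (SE), adjusted p = 0.00285) and in lungs ST2+ Tregs (log2 fold change -0.70 ± 0.22 (SE), adjusted p = 0.0485). Higher in VAT ST2+ Tregs were Nsdhl (log2 fold change 1.08 ± 0.26 (SE), adjusted p = 0.00187), Elovl6 (log2 fold change 1.79 ± 0.48 (SE), adjusted p = 0.00695), Elovl5 (log2 fold change 0.69 ± 0.15 (SE), adjusted p = 0.000503), Cyp51 (log2 fold change 0.91), Idi1 (2.01) and Srebf2 (0.60; 0.57 and under the fold limit with mouse as a replicate block). In VAT ST2- CD44hi Tregs Cyp51 (0.97) and Stard4 (1.12) were higher. Macrophage markers had mean sums of 166 and 55.3 CPM in VAT ST2+ and ST2- CD44hi libraries, against 6.38 and 10.8 CPM in spleen. Fibroblast markers had 23.3 and 22.5 CPM against 0.0706 and 1.56 CPM, and dendritic cell markers 40.4 and 28.7 CPM against 7.73 and 4.13 CPM. Of the dendritic cell sums Xcr1 made up 22.8 and 24.9 CPM in VAT, where Itgax was at 0 in ST2+ libraries, and all in spleen. B cell markers were lower in VAT (68.0 and 55.6 CPM against 98.0 and 87.1 CPM). The part of other cells in these VAT values was not tested. Without each mouse in turn, Abcg1 passed in VAT of both populations and Nsdhl and Elovl6 in VAT ST2+ Tregs, and the other members named here were lost without at least 1 mouse, Elovl5 through the fold limit (log2 fold change 0.53 without mouse 3 and 0.56 without mouse 4). Of the 5 VAT ST2- CD44hi libraries 3 came from 93 to 135 cells. Without the libraries of fewer than 150 cells, no member named for VAT ST2- CD44hi Tregs passed. The values were then -0.83 for Abcg1 (log2 fold change, edgeR adjusted p = 0.152), 0.84 for Stard4 (0.314) and 0.90 for Cyp51 (0.282). These fold changes kept their direction and most of their size.

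In lungs ST2+ Tregs 4 passed, where 4.87% of all genes did. Elovl5 (log2 fold change 0.68 ± 0.15 (SE), adjusted p = 0.00114), Cyp51 (log2 fold change 0.99) and Hmgcs1 (0.999) were higher and Abcg1 lower by edgeR, and in lungs ST2- CD44hi Tregs only Elovl5 passed (log2 fold change 0.63 ± 0.15 (SE), adjusted p = 0.00336), where 4.03% of all genes did. Lung epithelium markers had mean sums of 93.1 and 64.7 CPM in lungs ST2+ and ST2- CD44hi libraries, against 0.103 and 0 CPM in spleen. Dendritic cell markers had 29.4 and 8.15 CPM in lungs and 7.73 and 4.13 CPM in spleen. Xcr1 made up 28.1 and 7.47 CPM of this in lungs and all of it in spleen, where Itgax, Flt3 and Clec9a were at 0. Itgax and Flt3 were also at 0 in lungs ST2+ and Flt3 in lungs ST2- CD44hi libraries. B cell markers were lower in lungs (44.8 and 35.2 CPM against 98.0 and 87.1 CPM). The part of other cells in these lung values was not tested. In colon 5 members were higher in ST2+ Tregs (10.4% of all genes changed and 8.62% were higher) and 3 in ST2- CD44hi Tregs (11.0% and 8.62%). Beside the desaturases these were Idi1 (log2 fold change 2.32), Stard4 (1.08) and Cyp51 (1.08) in ST2+ Tregs, and Stard4 (1.18) and Msmo1 (0.80) in ST2- CD44hi Tregs. Blood had 1 member in each population. Ebp was higher in blood ST2+ Tregs (log2 fold change 0.79 ± 0.17 (SE), adjusted p = 0.00154, edgeR), where 4.11% of all genes changed, and Hacd3 was lower in blood ST2- CD44hi Tregs (log2 fold change -0.76 ± 0.12 (SE), adjusted p = 1.5e-05), where 3.38% did and where a replicate block raised the number of members to 2. With each mouse left out, these calls in blood and that of Elovl5 in lungs ST2- CD44hi Tregs held, and every other call named for lungs and colon was lost without at least 1 mouse, leaving 0 to 2 in lungs ST2+, 0 to 3 in colon ST2+ and 0 to 2 in colon ST2- CD44hi Tregs. Macrophage and colon epithelium markers of colon ST2- CD44hi Tregs are given above. Fibroblast markers had a mean sum of 251 CPM (6.82 to 677) in those libraries, against 1.56 CPM in spleen ST2- CD44hi Tregs. Their B cell markers had a mean sum of 153 CPM, against 87.1 CPM in spleen. In colon ST2- CD44hi Tregs Stard4 (log2 fold change 0.56, edgeR adjusted p = 0.532) and Msmo1 (0.62, adjusted p = 0.339) also did not pass without the marker-rich libraries.

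Tested over the 6 tissues at once, 20 of the 39 genes differed in ST2+ and 18 in ST2- CD44hi Tregs, next to 47.6% and 43.5% of all genes. Without the marker-rich libraries the count in ST2- CD44hi Tregs was 10, next to 24.5% of all genes. In each role the genes with the clearest differences were Hmgcs1 and the thiolase gene Acat2, Cyp51 and Nsdhl, Insig1 and Srebf2, Stard4 and Abcg1, Acaca and the synthase gene Fasn, and Hacd3 and Elovl5. The adjusted p of Acat2 was 0.00684 in ST2+ and 0.00514 in ST2- CD44hi Tregs by edgeR, and it was 72.5, 48.99, 62.6, 41.7 and 62.7 CPM in skin ST2+ against 42.8, 35.7, 35.1, 30.5 and 21.2 CPM in spleen ST2+ Tregs. That direct comparison of skin and spleen did not pass, whereas Acat2 was higher in skin than in VAT in both populations, where 21.9% of all genes differed in ST2+ and 18.1% in ST2- CD44hi Tregs. For Srebf2 the adjusted p over tissues was 0.0599 and 0.139, for Acaca 0.342 and 0.147, and for Fasn 0.121 and 0.496, so that Insig1 was the SREBP control gene that passed and no fatty acid synthesis gene did.

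Between ST2+ and ST2- CD44hi Tregs of the same tissue, members passed in blood and VAT. In blood 4 of 39 did, where 4.04% of all genes did. Ebp, which moves the double bond of the sterol ring, was 277, 234, 226 and 324 CPM in the ST2+ libraries of mice 2 to 5 and 129, 156, 153, 121 and 218 CPM in the ST2- libraries of mice 1 to 5. The groups did not overlap, Ebp was higher in ST2+ Tregs of 4 of 4 mice, and the difference was 1.71-fold (log2 fold change 0.77 ± 0.17 (SE), adjusted p = 0.00217, edgeR). Nsdhl was 86.2, 88.3, 60.4 and 51.97 CPM in ST2+ and 40.8, 10.6, 49.2, 52.02 and 39.2 CPM in ST2- Tregs, and the sterol reductase gene Hsd17b7 was 28.2, 64.1, 19.4 and 37.1 CPM and 0, 0, 22.4, 17.8 and 0 CPM. Both overlapped between the groups, were higher in ST2+ Tregs of 4 of 4 mice, and passed with adjusted p = 0.0418 (log2 fold change 0.90 ± 0.27, SE) and adjusted p = 0.0423 (2.18 ± 0.67) by edgeR. Abca1, the cholesterol exporter that loads lipoproteins, was 0.532, 0, 5.07 and 2.71 CPM in ST2+ and 26.8, 9.38, 34.6, 34.7 and 36.9 CPM in ST2- Tregs. Every ST2+ library was below every ST2- library (log2 fold change -3.73 ± 1.17 (SE), adjusted p = 0.0494, edgeR), and with mouse as a replicate block the adjusted p was 0.0520.

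In blood the 3 genes that rose encode enzymes of late steps of sterol synthesis, and the 11 squalene-to-cholesterol genes had a median log2 fold change of 0.44, while the median of all 39 members was 0 and that of all genes was 0. Macrophage markers summed to 49.0, 132, 74.7 and 115 CPM in the blood ST2+ libraries and to 10.5, 86.3, 15.6, 41.3 and 57.9 CPM in the ST2- libraries, with Lyz2 the most abundant (92.2 and 38.6 CPM) and Csf1r, C1qa and Adgre1 at 0. Red cell markers reached 373 CPM in ST2+ and 522 CPM in ST2- libraries of blood. The 4 B cell markers had mean sums of 105 CPM (56.2 to 177) in ST2+ and 52.4 CPM (30.3 to 85.4) in ST2- libraries of blood, with Cd79b the most abundant (95.6 and 47.4 CPM), and dendritic cell markers 13.9 and 2.55 CPM, mostly Xcr1. Leaving out the marker-rich libraries kept 2 ST2+ and 3 ST2- CD44hi libraries of blood. Abca1 (log2 fold change -6.25, edgeR adjusted p = 0.0709) and Hsd17b7 (2.63, adjusted p = 0.0851) then did not pass although their fold changes were larger. Limma with voom quality weights did not call Nsdhl (log2 fold change 0.69, adjusted p = 0.287) or Hsd17b7 (2.93, adjusted p = 0.0620). Without the 4 libraries of fewer than 150 cells Ebp passed, and Nsdhl, Hsd17b7 and Abca1 did not (edgeR adjusted p = 0.116, 0.163 and 0.127). Their log2 fold changes were then 0.80, 1.80 and -3.31, close to those with all libraries. Each of these 3 calls was also lost in fits with 1 mouse left out. That of Nsdhl was lost without any of the 5 (log2 fold change 0.56 to 1.10, edgeR adjusted p up to 0.245). That of Hsd17b7 was lost without mouse 1, 2, 3 or 5 (1.85 to 2.65, adjusted p up to 0.179). The call of Abca1 was lost without mouse 2, 3, 4 or 5 (-3.22 to -4.56, adjusted p up to 0.263), while Ebp passed without each mouse.

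In VAT 3 of 39 members passed, where 3.12% of all genes did and 1.27% were higher, and all 3 were higher in ST2+ Tregs of 5 of 5 mice without overlap between the groups. Elovl5 was 428, 362, 542, 634 and 309 CPM in ST2+ and 203, 250.6, 224, 271 and 159.8 CPM in ST2- CD44hi Tregs, a difference of 2.06-fold (log2 fold change 1.04 ± 0.15 (SE), adjusted p = 2.74e-06, edgeR). Elovl6 was 68.9, 57.9, 56.1, 101 and 51.8 CPM in ST2+ and 21.4, 11.4, 6.78, 27.2 and 25.6 CPM in ST2- CD44hi Tregs (3.62-fold, log2 fold change 1.85 ± 0.49 (SE), adjusted p = 0.0163, edgeR). Nsdhl was 127, 138, 112, 109 and 118 CPM and 74.01, 40.7, 89.1, 53.3 and 50.7 CPM (1.96-fold, log2 fold change 0.97 ± 0.26 (SE), adjusted p = 0.0177, edgeR). Of the 2 elongases, Elovl6 acts on saturated and Elovl5 on polyunsaturated chains. The median log2 fold change of all 39 members was 0.12 next to -0.01 for all genes. Macrophage markers summed to 178, 235, 126, 80.4 and 209.6 CPM in VAT ST2+ and to 111, 0, 92.1, 11.7 and 61.5 CPM in VAT ST2- CD44hi libraries, with Lyz2 the most abundant at 76.7 and 25.3 CPM and Csf1r and Mrc1 at 0 in ST2-. Of the adipocyte list, Fabp4 alone had counts in VAT ST2+ libraries, and Adipoq, Plin1, Cidec and Lep were at 0. The part of macrophage transcripts was not tested, and without the marker-rich libraries of all tissues Elovl6 did not pass (log2 fold change 1.64, edgeR adjusted p = 0.0778). Without the libraries of fewer than 150 cells, Elovl6 (log2 fold change 2.23, edgeR adjusted p = 0.0892) and Nsdhl (log2 fold change 0.57, adjusted p = 0.464) did not pass. Neither did Elovl6 without mouse 2, 3 or 4 (log2 fold change 1.70 to 1.84, edgeR adjusted p from 0.0673 to 0.114). Nsdhl did not pass without mouse 4 or 5 (log2 fold change 0.96 and 0.90, adjusted p = 0.0984 and 0.121), whereas Elovl5 passed without each mouse.

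No member passed in spleen, lungs, colon or skin, where 0.319%, 0.782%, 0.0683% and 0.213% of all genes did by edgeR. At an unadjusted p under 0.05 there were 1, 6, 1 and 3 members, next to 5.16%, 10.03%, 5.04% and 8.46% of all genes. DESeq2 called 0 in each of these tissues, and limma with voom quality weights called 1 in colon, Fads2, where it called 2.24% of all genes, and 0 in the other tissues. For Elovl5 the log2 fold change of ST2+ against ST2- reached 1.04 in VAT, followed by 0.59 in colon, 0.44 in skin, 0.24 in lungs, 0.19 in spleen and -0.13 in blood, and these values differed among tissues (edgeR test of the interaction of tissue and ST2, adjusted p = 0.00828). It was the 1 member to pass that test, next to 1.43% of all genes, with mouse as a replicate block Nsdhl passed as well, and without mouse 3 or mouse 5 none did. For Nsdhl the values were 0.97 in VAT, 0.90 in blood, 0.26 in lungs, -0.09 in spleen, -0.20 in skin and -0.43 in colon. For Ebp, outside blood, they lay between -0.11 in skin and 0.39 in lungs, and the interaction did not pass.

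**Figure D4:**
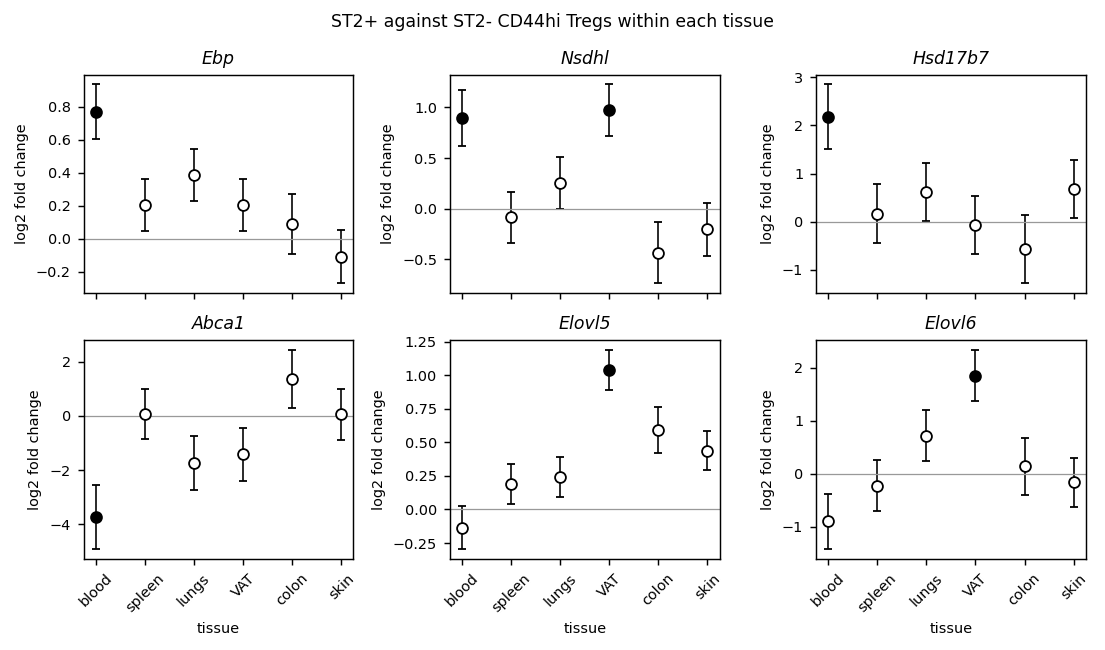
Log2 fold change of ST2+ against ST2- CD44hi Tregs within each of the 6 tissues for the 6 members that were DEGs in blood or VAT, with bars of 1 SE and filled points for DEGs. Ebp, Hsd17b7 and Abca1 are filled in blood alone, Elovl5 and Elovl6 in VAT alone, and Nsdhl in both.

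In ST2- Tregs, Hacd3 separated effector from central cells. In spleen it was 267, 335, 317, 295 and 311 CPM in CD44hi and 155, 158, 114, 133 and 132 CPM in CD44lo CD62L+ Tregs. In lungs it was 229.7, 277, 208, 248.95 and 264 CPM and 119, 120.5, 86.7, 110.3 and 91.8 CPM. CD44hi Tregs were higher in 5 of 5 mice in each tissue with no overlap, 2.21-fold in spleen (log2 fold change 1.14 ± 0.12 (SE), adjusted p = 2.64e-10) and 2.32-fold in lungs (log2 fold change 1.21 ± 0.12 (SE), adjusted p = 3.05e-11) by edgeR. It was the 1 member to pass in spleen, where 5.03% of all genes did. Over the 39 genes, Hacd3 included, the median log2 fold change there was -0.21 (29 negative and 9 positive), next to 0.01 for all genes. At an unadjusted edgeR p under 0.05 there were 6 members, next to 15.4% of all genes. With mouse as a replicate block Srebf2 was also lower in CD44hi Tregs of spleen, at 199.7, 163, 153, 141 and 129 CPM against 238.9, 229.8, 298, 236 and 184 CPM. With limma and voom quality weights 6 members passed in spleen, next to 11.6% of all genes, and apart from Hacd3 these were lower in CD44hi Tregs (Cyp51, Mvd, Acaca, Srebf2 and Hmgcs1).

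In lungs 4 members passed between eTregs and cTregs, where 5.53% of all genes did, and 7 with limma, where 9.28% did. Hmgcs1 was 44.6, 50.2, 82.95, 77.8 and 93.3 CPM in CD44hi and 19.5, 45.7, 47.8, 25.7 and 31.9 CPM in CD44lo CD62L+ Tregs, with overlap (log2 fold change 1.04 ± 0.32 (SE), adjusted p = 0.0344, edgeR). Fdft1, the squalene synthase, was 73.1, 60.7, 68.5, 62.1 and 58.5 CPM and 33.5, 36.6, 42.6, 53.6 and 41.1 CPM, with no overlap (log2 fold change 0.64 ± 0.21 (SE), adjusted p = 0.0483, edgeR). Abcg1 went the other way, at 63.4, 50.2, 69.7, 67.8 and 78.8 CPM in CD44hi and 118, 97.9, 149, 102 and 112 CPM in CD44lo CD62L+ Tregs (log2 fold change -0.81 ± 0.22 (SE), adjusted p = 0.0143, edgeR), also without overlap. Elovl1, which elongates saturated very long chain fatty acids, had an adjusted p of 0.00955 (edgeR) but a log2 fold change of 0.58 ± 0.15 (SE), under the fold limit. The median over the members was 0.13, next to 0.01 for all genes. Fdft1 did not pass without any 1 of the 5 mice (log2 fold change 0.52 to 0.76, edgeR adjusted p from 0.0725 to 0.223). Hmgcs1 did not without mouse 1, 3, 4 or 5 (0.86 to 1.13, adjusted p from 0.0654 to 0.244). Abcg1 did not without mouse 1, 3 or 4 (-0.72 to -0.86, adjusted p from 0.0513 to 0.154), and Hacd3 passed without each. The 12 cell cycle markers summed to 1156, 1574, 1132, 666 and 1587 CPM in lungs CD44hi and to 252, 226, 154, 212 and 188 CPM in lungs CD44lo CD62L+ libraries, and their part in these differences was not tested. In spleen these sums were 1225, 436, 881, 664 and 738 CPM in CD44hi and 206, 244, 257, 213 and 212 CPM in CD44lo CD62L+ libraries.

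In central Tregs several sterol enzymes were lower in lungs than in spleen. Of the 39 genes 5 passed, all lower in lungs, where 3.16% of all genes passed and 1.04% were lower. Fdft1 was 33.5, 36.6, 42.6, 53.6 and 41.1 CPM in lungs and 99.3, 71.05, 99.1, 104 and 127 CPM in spleen (log2 fold change -1.27 ± 0.21 (SE), adjusted p = 1.02e-05, edgeR), 2.42-fold lower and without overlap. Of the Fdft1 transcript 54.7% is matched by Ctsb, which overlaps it on the opposite strand, and Gm6781, so its level is uncertain. Sqle, the squalene epoxidase, was 25.4, 8.03, 35.6, 23.6 and 53.1 CPM in lungs and 65.6, 75.4, 137, 95.02 and 76.5 CPM in spleen (log2 fold change -1.62 ± 0.44 (SE), adjusted p = 0.0196, edgeR), and Msmo1 was 72.1, 69.3, 88.6, 85.6 and 59.04 CPM and 119, 112, 172, 185 and 153 CPM (log2 fold change -0.98 ± 0.28 (SE), adjusted p = 0.0315, edgeR). Neither of these overlapped between the tissues. Hmgcs1 was 19.5, 45.7, 47.8, 25.7 and 31.9 CPM in lungs and 66.3, 46.04, 107, 93.99 and 78.04 CPM in spleen (log2 fold change -1.20 ± 0.32 (SE), adjusted p = 0.016, edgeR), with the spleen library of mouse 2 inside the range of lungs. Elovl1 was 100.01, 94.4, 86.7, 87.2 and 77.8 CPM in lungs and 132, 151, 144, 163 and 181 CPM in spleen (log2 fold change -0.79 ± 0.15 (SE), adjusted p = 0.000284, edgeR), without overlap. The annotated span of Elovl1 overlaps that of the cell cycle gene Cdc20 on the opposite strand, but its longest coding transcript matched 0 other genes in the search for near copies. Fdft1 and Elovl1 passed without each mouse in turn. Sqle did not without mouse 2, 3 or 4 (log2 fold change -1.44 to -1.53, edgeR adjusted p from 0.11 to 0.141). Msmo1 did not without mouse 2, 3, 4 or 5 (-0.89 to -1.04, adjusted p from 0.0685 to 0.170). Hmgcs1 did not without mouse 3, 4 or 5 (-1.04 to -1.20, adjusted p from 0.0701 to 0.172).

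Most other genes of both sterol roles had negative values as well. The median log2 fold change was -0.98 over the 11 squalene-to-cholesterol genes and -0.74 over the 7 mevalonate genes, against -0.35 over all 39 members and 0 over all genes. Summed, the squalene-to-cholesterol genes stood at 575 ± 68 CPM (SD, n = 5) in lungs and 920.5 ± 119.9 CPM (n = 5) in spleen, with ranges of 496 to 672 and 733 to 1029 CPM, and the mevalonate genes at 155 ± 24.6 and 288 ± 49 CPM (n = 5 each). Cyp51 (log2 fold change -1.01 ± 0.31, adjusted p = 0.0531), Dhcr7 (-1.13 ± 0.35, 0.0568), the decarboxylase gene Mvd (-1.11 ± 0.35, 0.0628) and the cyclase gene Lss (-1.87 ± 0.68, 0.134) did not pass with edgeR, and limma with voom quality weights and DESeq2 each called 9 members, next to 7.20% and 4.78% of all genes. All 5 of 5 lung epithelium markers had counts in lungs CD44lo CD62L+ libraries, summing to 219.9, 39.7, 49.2, 97.1 and 51.5 CPM with Sftpc the most abundant (50.2 CPM), and all were at 0 in spleen. Lungs were digested with collagenase and spleen was not, so tissue and dissociation cannot be told apart here either.

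The same 5 genes did not pass between lungs and spleen in ST2- CD44hi Tregs. Their log2 fold changes of lungs against spleen were -0.25 for Fdft1, 0.56 for Hmgcs1, -0.51 for Sqle, 0.23 for Msmo1 and -0.41 for Elovl1. The difference between the effector and the central comparison was tested itself, a contrast added after the values were seen, and 0 of 39 members passed with edgeR (0.129% of all genes did), while 7 had an unadjusted p under 0.05, as 6.27% of all genes did. Both limma and DESeq2 called 2 members, Fdft1 and Hmgcs1, next to 0.782% and 0.592% of all genes. By edgeR that difference was 1.76 ± 0.45 (log2, SE; adjusted p = 0.0811) for Hmgcs1 and 1.02 ± 0.29 (adjusted p = 0.161) for Fdft1, and over the 39 members 29 of the values were positive with a median of 0.30.

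**Figure D5:**
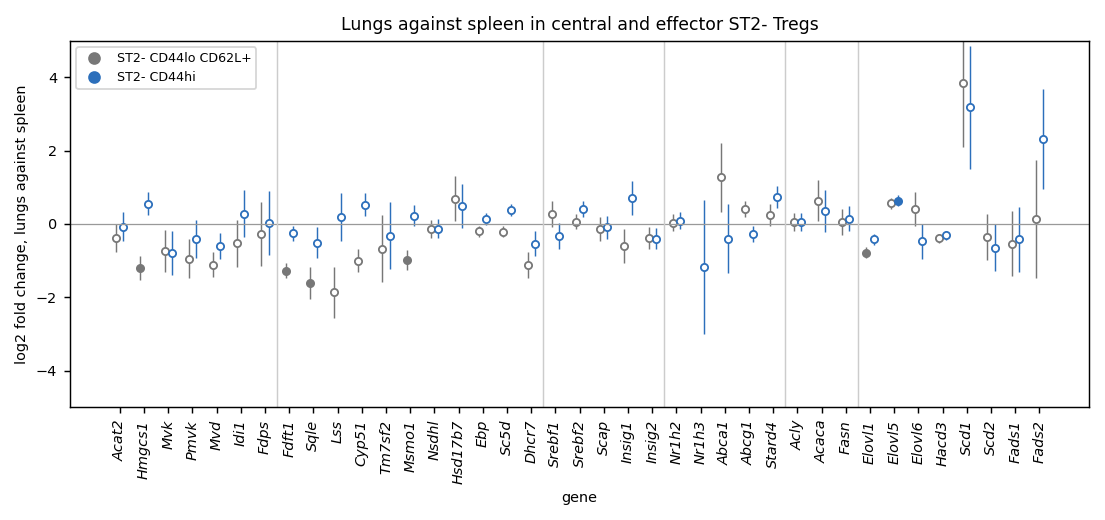
Log2 fold change of lungs against spleen for the 39 members in order of role, in CD44lo CD62L+ Tregs (grey) and ST2- CD44hi Tregs (blue), with bars of 1 SE and filled points for DEGs. The grey points of most sterol enzymes on the left lie below 0 and below the blue ones, 4 of them filled along with Elovl1, and the grey point of Nr1h3, which had 0 counts in lungs CD44lo CD62L+ libraries, is off the scale.

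Most regulators of the pathway had narrow ranges over the groups. Srebf1, the SREBP of fatty acid synthesis, had group means from 49.2 ± 14.9 CPM (SD) in skin ST2- to 102 ± 32.7 CPM in lungs CD44lo CD62L+ Tregs, and Srebf2 from 157 ± 27.04 CPM in spleen ST2- CD44hi to 248 ± 32.3 CPM in lungs CD44lo CD62L+ Tregs (n = 5 each). Scap lay between 37.9 ± 8.53 CPM in colon ST2+ (n = 3) and 66.3 ± 18.6 CPM in skin ST2- Tregs (n = 5), and Insig2, the constitutive partner of Insig1, between 55.9 ± 34.8 CPM in blood ST2- (n = 5) and 117 ± 27.99 CPM in colon ST2+ Tregs (n = 3). The test over 6 tissues did not pass for Srebf1, Scap or Insig2 in either population. Insig1 had the widest range of these, 6.36 times between blood ST2- (20.9 ± 24.3 CPM) and skin ST2- Tregs (133 ± 31.5 CPM, n = 5 each). Nr1h2, which encodes LXRβ, had the narrowest range of all members with counts in every group, 1.51 times, from 107 ± 14.5 CPM in colon ST2+ (n = 3) to 161 ± 43.95 CPM in skin ST2- Tregs (n = 5). Its targets spread further. Abca1 ran from 2.08 ± 2.31 CPM in blood ST2+ (n = 4) to 36.6 ± 11.6 CPM in lungs CD44lo CD62L+ Tregs (n = 5), and Abcg1 from 26.4 ± 9.07 CPM in VAT ST2+ to 116 ± 20.1 CPM in lungs CD44lo CD62L+ Tregs (n = 5 each).

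The 3 genes of fatty acid synthesis were not DEGs between ST2+ and ST2- Tregs of any tissue, between any tissue and spleen, or between eTregs and cTregs. Acly, which makes cytosolic acetyl-CoA, ranged from 171 ± 25.9 CPM in skin ST2+ to 295 ± 101 CPM in lungs ST2+ Tregs (SD, n = 5 each), and was lower in skin ST2+ than in lungs and VAT ST2+ Tregs by edgeR (17.9% and 21.9% of all genes differed). Acaca ranged from 5.24 ± 2.78 CPM in spleen ST2- CD44hi to 20.7 ± 5.77 CPM in lungs CD44lo CD62L+ Tregs, with 64.3% of its coding transcript matched by an annotated copy that could take its reads. Fasn was 124, 95.7, 194, 109 and 57.5 CPM in VAT ST2+ and 56.1, 48.98, 72.2, 49.04 and 52.1 CPM in VAT ST2- CD44hi Tregs, a difference that passed with mouse as a replicate block and with DESeq2 but not in the test used here. Among the mevalonate genes Acat2, Fdps, Idi1 and Hmgcs1, and also Fdft1, likewise share sequence with annotated copies or overlapping genes. The shared part was 91.4% of the transcript for Fdps, 65.6% for Acat2, 54.7% for Fdft1, 33.3% for Idi1 and 16.2% for Hmgcs1. Elovl6 shares sequence with 80 other annotated genes over 15.1% of its transcript, and Scap with 1 over 18.9%. The levels of all these genes are uncertain by reads that could belong to either gene.

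A list of 40 further genes of lipid metabolism, with partners of these enzymes such as Por, the electron donor of Cyp51, was followed beside the members, and 36 were tested. None passed between ST2+ and ST2- Tregs in any tissue or between cTregs of lungs and spleen. Between eTregs and cTregs, Acss2, an acetyl-CoA synthetase, was lower in CD44hi Tregs of spleen, and Mid1ip1, an activator of acetyl-CoA carboxylase, was higher in CD44hi Tregs of lungs. In skin against spleen 10 passed in ST2+ Tregs (6 higher and 4 lower) and 11 in ST2- CD44hi Tregs (9 higher and 2 lower), a share near the 29.1% and 30.9% of all genes. Por was higher in both (log2 fold changes 1.29 and 0.91), as were the acyl-CoA synthetase gene Acsl4 (1.66 and 1.47), Fads3 and the malic enzyme gene Me1. Acsl5, another acyl-CoA synthetase, was lower in both (-0.97 and -1.001).

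Among libraries of the same group, members varied together only weakly. Deviations of log2 CPM from the group means, over 67 libraries, had a median Pearson r of 0.07 over the 741 pairs of members, 0.13 over the 153 pairs of sterol enzymes and 0.14 over the 28 pairs of elongation and desaturation genes, next to 0.01 over pairs of all genes. For the elongation and desaturation genes, this median ran from 0.078 without mouse 1 to 0.19 without mouse 4. The pairs most alike were Acat2 and Insig1 (r = 0.64), Sqle and Scd2 (0.60) and Nr1h2 and Acly (0.55), and the pair most opposed was Ebp and Srebf2 (-0.47). With the summed cell cycle markers the members had a median r of 0.12 and all genes one of 0.03, Acat2 standing at 0.43. These points share their libraries, their depth and the handling of each mouse, and they are given as a description.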

How the data were processed

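Libraries were made with SMART-Seq v4 and NexteraXT from the sorted Tregs and read as 58-base single reads. The authors trimmed the reads, aligned them with STAR to GRCm38 and counted reads per gene with HTSeq, and the values they deposited are raw counts per gene and library, neither scaled nor filtered. The submitters' processing notes also name CASAVA 1.8.2, HTSeq 0.4.1, Picard, SAMtools and FastQC. For the counting mode and strand, no setting is given in the sources used here, so reads of overlapping genes on opposite strands cannot be told apart, and 14 members share sequence of at least 97% identity over 58 bases with another annotated gene. Blood and spleen were not digested, other tissues were treated with collagenase, and spleen and lungs were enriched for CD4+ cells before sorting.

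Of the 53465 IDs, 53274 were in GENCODE M21 and 21865 were protein-coding. Libraries under 1000000 counts were left out, namely those of mouse 1 in blood ST2+ (488666 counts) and of mice 2 (3582) and 5 (62333) in colon ST2+. TMM factors were applied and the counts fitted over all 14 groups with edgeR 4.0.16 (quasi-likelihood, R 4.3.3), and printed CPM are scaled by the same factors. Log2 CPM had a prior count of 2, and 5 as an alternative for the correlations. The main fit had 1 term per group and none for mouse, so libraries of the same mouse were treated as independent. Its p-values rest on the spread among libraries within groups of 5 or fewer mice, pooled over all 14 groups. Alternatives were limma 3.58.1 with voom quality weights (the study's own test), DESeq2 1.42.0, mouse as a replicate block, median-of-ratios (RLE) factors, no gene filter (18536 genes), leaving out 4 libraries of fewer than 150 cells, and leaving out each mouse. Added after seeing the data were the test without 15 libraries rich in markers of 8 other cell types, colon epithelium and sebaceous gland not among them, and the difference between the effector and central comparisons of lungs and spleen. Replicate numbers stand for the same animal in every group. Within a tissue and mouse, the deviations of ST2+ and ST2- CD44hi libraries from their group means had a mean r of 0.07 over 27 pairs, 6 of them above 0.1, and those of different mice one of -0.02 over 108.

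The members, the marker lists and the list of 40 further genes were chosen with earlier results of these data known. Genes named in the text were all members called between ST2+ and ST2- Tregs or between CD44hi and CD44lo CD62L+ Tregs, those that differed between 1 tissue and all others in both populations, the 2 members of each role with the smallest larger adjusted p over tissues, and the SREBP and LXR genes. Members called against spleen or between cTregs of lungs and spleen, and values beside these, were named after they were seen. The 129 library pairs within groups held 0 with identical counts. The fits were also run on counts simulated with the dispersions of these data, as independent libraries and with changes set only in genes above a minimum level. That run cannot show how shared mice, RNA of other cells or low counts affect the calls, and no result here rests on it. Promoter sequences are from RefSeq, near copies were found with BLAST 2.17.0, and figures were drawn with matplotlib 3.10.9 in Python 3.11.15 (numpy 2.4.6, scipy 1.17.1, pandas 2.3.3).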

Additional observations from a re-analysis of the deposited data

Results flagged for a closer look

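The levels of members in a single library stood far from the others of its group by Dixon's criterion at 95% in 4 of 78 sums over a role and in 2 of 55 groups of named members, and chance would give about 1 in 20. The library of mouse 3 was the one concerned in most of them. In skin ST2+ Tregs the summed mevalonate genes were at 500.4 CPM in that mouse and at most 267 CPM in the others, and Hmgcs1, part of that sum, was at 225 CPM with the next library at 100.1 CPM. In skin ST2- CD44hi Tregs the summed squalene-to-cholesterol genes were at 1318 CPM in mouse 3, with the next library at 1015 CPM. Keratinocyte markers summed to 1323 and 1272 CPM in these same libraries, the highest of their groups, and their part in the values was not tested. In blood ST2+ Tregs the squalene-to-cholesterol genes summed to 1149.6 CPM in mouse 5, with the next at 917 CPM. In lungs ST2+ Tregs the LXR and transport genes summed to 359.9 CPM in mouse 3, with the next at 267 CPM. In spleen ST2+ Tregs Elovl5 was lowest in mouse 3, at 208 CPM, with the next at 291 CPM.

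The difference in Elovl5 between ST2+ and ST2- CD44hi Tregs varied among the 6 tissues (edgeR interaction of tissue and ST2, adjusted p = 0.00828). Its log2 fold change was 1.04 in VAT, where ST2+ Tregs were higher in 5 of 5 mice, and -0.13 in blood. The test did not pass without the libraries of fewer than 150 cells, without mouse 3 or without mouse 5.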

How the results depend on the processing

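Of 66 calls of a member in a comparison, 27 held in all alternatives that gave a value and no call changed direction. Kept calls numbered 61 with limma, 61 of the 63 with a value with DESeq2, 62 with mouse as a replicate block, 65 with RLE factors, 49 with no filter, 56 without libraries of fewer than 150 cells and 45 of the 59 with a value without marker-rich libraries. They numbered 30 to 49 when 1 mouse was left out, where a lone or small group borrows its spread from the others. The cause of a lost call was not tested. The replicate block ended the calls of Abca1 in blood, Srebf2 in VAT and skin and Fads2 in skin, and no other. In the comparisons counted below, the median log2 fold change of all genes lay at most 0.137 from 0 in any run. Pairs of tissues without spleen were not followed in this way. Genes near 1 CPM, such as Scd1, Fads2 and Nr1h3, are limited by depth.

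The counts in this and the next paragraph stand without the share of all genes under the same setting. They describe how calls moved and are not results about the members, since that share moved as well. With limma it was 2.24% for ST2+ against ST2- in colon, next to 0.0683% with edgeR. For CD44hi against CD44lo CD62L+ in spleen it was 11.6%, next to 5.03%. For ST2+ against ST2- the members called in blood numbered 4, but 1 with no filter and 2 without small libraries, and 1 to 3 with a mouse left out. VAT had 3, but 1 without small libraries and 1 to 4 with a mouse left out. Colon had 0, but 1 with limma and 0 with a mouse left out, spleen and skin stayed at 0, and lungs had 0 to 1. The interaction had 1, but 5 with limma, 3 with DESeq2, 2 with the replicate block and 0 without small libraries, and 0 to 1 with a mouse left out. CD44hi against CD44lo CD62L+ gave 1 in spleen, but 6 with limma, 2 with the replicate block and 2 without marker-rich libraries, and 1 to 2 with a mouse left out. Lungs gave 4, but 7 with limma and 1 to 3 with a mouse left out. For cTregs of lungs against spleen the count was 5, but 9 with limma and 9 with DESeq2, and 2 to 7 with a mouse left out. The difference of both gave 0, but 2 with limma and 2 with DESeq2, and 0 with a mouse left out.

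Against spleen, ST2+ Tregs of blood had 1, but 2 with DESeq2 and 3 without marker-rich libraries (1 to 2 with a mouse left out), lungs 4, but 2 with no filter (0 to 2), VAT 7 (3 to 8), colon 5, but 3 with DESeq2 (0 to 3), and skin 14, but 9 without marker-rich libraries (8 to 12). ST2- CD44hi Tregs of blood had 1, but 3 with limma, 3 with DESeq2, 2 with the replicate block and 2 without small libraries (1 to 2), lungs 1, but 3 with limma (1 to 1), VAT 3, but 0 without small libraries (1 to 3), colon 3, but 8 with limma, 5 with DESeq2, 1 with no filter and 0 without marker-rich libraries (0 to 2), and skin 10 (7 to 10). Over 6 tissues 20 passed in ST2+ (15 to 22) and 18 in ST2- CD44hi Tregs, but 10 without marker-rich libraries (12 to 16). Hacd3 and Elovl5 stayed the 2 members higher in skin than in all other tissues, also with a mouse left out (2 to 2), and the median r among members was 0.0433 to 0.0889 with a mouse left out.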
